A study of Homo sapiens with 6 samples.

Results

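The genes described here are 35 members of the NRF2 (NFE2L2) pathway and the antioxidant enzymes that work beside it, out of 60623 genes in the deposited tables. They were chosen by name from their known roles, with earlier results of these data known. They are 4 regulators, 22 direct NRF2 targets and 9 peroxiredoxins, glutathione peroxidases and superoxide dismutases. All 35 were found. SOD2 is listed under 2 gene identifiers, so there are 36 rows, and all 36 passed the filter on low values.

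The study measured total RNA by sequencing in 6 libraries of cells made from H9, an established human embryonic stem cell line, by a differentiation protocol toward hepatocytes, and collected at day 19. The labels give liver as the tissue and hepatoblasts, the fetal precursors of hepatocytes, as the source. The 3 DMSO libraries came from vehicle cells in 0.1% DMSO. The other 3 libraries came from cells given hexafluoropropylene oxide trimer acid (HFPO-TA), one of the fluorinated ether acids used in place of older perfluoroalkyl acids. Its dose is printed as 10, but the unit is garbled and is not given here. Neither the length of exposure nor a vehicle in the HFPO-TA libraries is stated. The 6 libraries derive from 1 cell line, and nothing says that the 3 of a group were separate cultures, so each p-value is set against differences among libraries that could be technical alone.

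NRF2 is a transcription factor that cells use against electrophiles and oxidants. In unstressed cells KEAP1 holds NRF2 and passes it to a CUL3 ubiquitin ligase for destruction. When KEAP1 is modified or displaced, NRF2 accumulates, pairs with a small MAF protein and binds antioxidant response elements (AREs), while BACH1 competes for the same elements as a repressor. Because NRF2 is set mainly by protein stability, its own transcript need not follow its activity. In liver the targets supply glutathione, reduced thioredoxin, quinone reduction and haem breakdown, whereas many peroxiredoxins, glutathione peroxidases and superoxide dismutases are abundant enzymes of every hepatocyte. GPX2, PRDX1 and MAFG are themselves known as NRF2 targets, so the line between the groups is not strict.

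The DNA element that NRF2 reads is shown first. The members were grouped by known role and not by this element. RefSeq start-site windows (GRCh38.p14, 250 bases before to 50 after each start) were at hand for 27 of the 35 members, 42 windows in all. The ARE core TGACNNNGC was searched on both strands. It lay in the windows of 7 members, 25.9% of the 27, against 16.1% of all 27305 genes in the table and 19.5% of the 10915 with a window among the genes tested. Genes can have more than 1 window. Counted by window, 8 of the 42 held the core, 19.05%, against 13.35% of all windows and 14.53% of those of genes tested. By group, and counted by gene, the core was found in 5 of 17 direct targets, 1 of 4 regulators and 1 of 6 enzymes of the antioxidant families. The 10 matches follow with 10 bases on each side, 5′ to 3′ in the direction of the gene, and capitals mark the core or its reverse complement.
GCLM, chr1:93909446-93909474, - strand: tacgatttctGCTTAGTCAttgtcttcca
EPHX1, chr1:225825266-225825294, + strand: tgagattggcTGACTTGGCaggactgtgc
TXNRD1 first start, chr12:104215670-104215698, + strand: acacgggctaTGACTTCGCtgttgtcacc
TXNRD1 first start, chr12:104215761-104215789, + strand: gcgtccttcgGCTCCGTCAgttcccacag
TXNRD1 second start, chr12:104286920-104286948, + strand: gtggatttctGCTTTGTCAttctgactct
CBR1, chr21:36069855-36069883, + strand: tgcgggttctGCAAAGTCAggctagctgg
PIR, chrX:15493289-15493317, - strand: gccgcgaagcGCTGAGTCAcggtgaggct
KEAP1, chr19:10502807-10502835, - strand: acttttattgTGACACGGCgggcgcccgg
KEAP1, chr19:10502784-10502812, - strand: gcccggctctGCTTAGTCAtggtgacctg
GPX2, chr14:64942849-64942877, - strand: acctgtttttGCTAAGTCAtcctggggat
The match in PIR reads TGACTCAGC on the other strand, an ARE that holds a TPA response element, and was the only match to that longer form among the members, where 0.69% of all genes in the table had 1. The windows of AKR1C1, SQSTM1, OSGIN1 and NQO1 held no match, which says only that these letters are not in those 300 bases. A match is a description and not a binding site.

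None of the 36 rows changed at an adjusted p under 0.05 (Benjamini-Hochberg over 15664 tested genes), where 0.492% of all tested genes did. Levels are in TPM, transcript abundance corrected for length and scaled to the same total in each library. Each log2 fold change is the HFPO-TA mean less the DMSO mean of log2(TPM + 1), a scale that understates changes of low genes, with its standard error (SE) and an unadjusted 95% confidence interval from limma. At an unadjusted p under 0.05, 8 rows were higher and 2 lower, against 5.45% higher and 6.56% lower of all tested genes. In 14 rows every HFPO-TA library lay above every DMSO library, and in 2 every one lay below, against 8.55% and 9.40% of all tested genes. The members' log2 fold changes ran from -0.51 (GPX2) to 1.36 (AKR1C1) with a median of 0.145, beside -0.008 over all tested genes. Above 0 lay 30 of 36, beside 48.3%. Since the members were chosen with earlier results known, these counts and medians are descriptions and not tests. For 34 of the 36 rows the interval stayed below 1, that is, below a doubling. The exceptions were AKR1C1 and AKR1B10. Of the 36 rows, 22 overlap a gene on the opposite strand, and whether the counting used strand is not known.

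**Figure D1:**
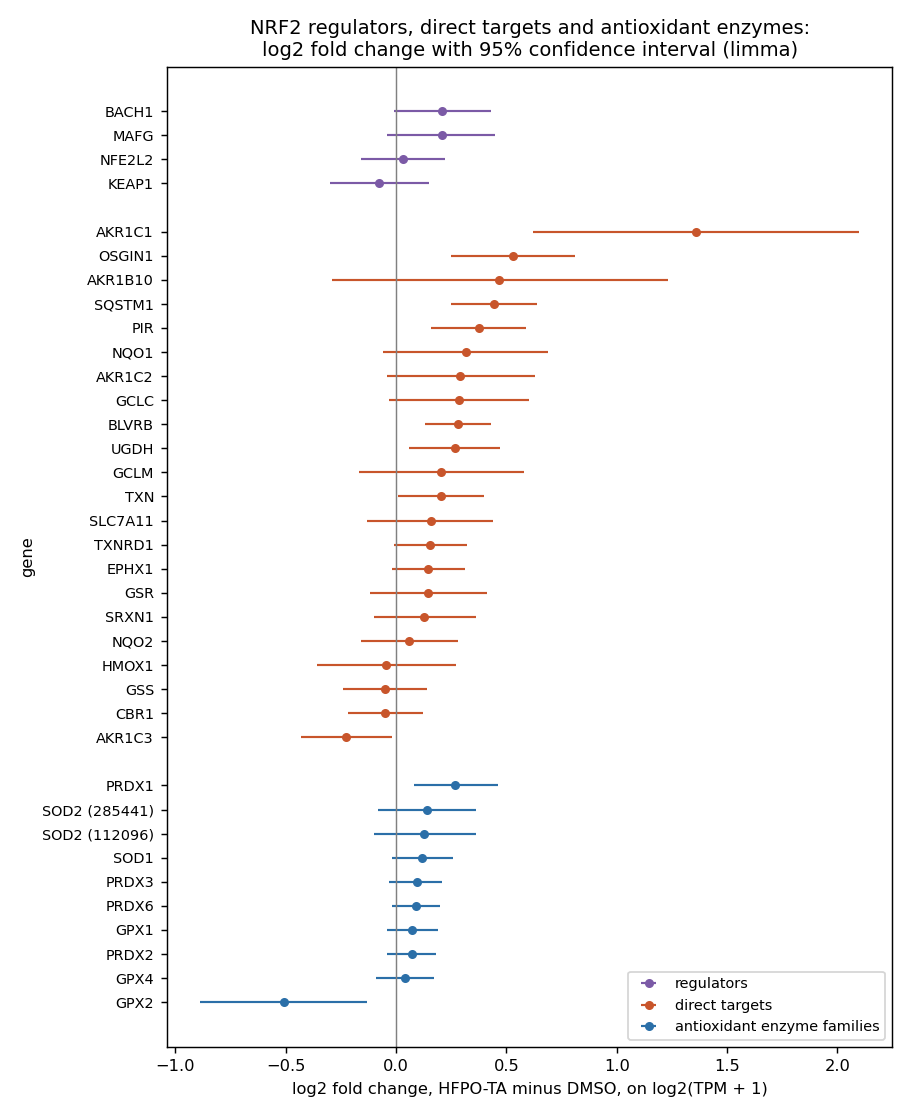
Log2 fold change (x axis, HFPO-TA minus DMSO on log2(TPM + 1)) of each member (y axis), coloured by group, with bars for the 95% confidence interval from limma over 3 libraries per group. The 2 SOD2 rows carry the last digits of their identifiers. Direct targets spread from -0.22 to 1.36, while 9 of the 10 rows of the antioxidant families lie between 0.04 and 0.27 and GPX2 lies at -0.51.

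The 4 regulators gave small values. NFE2L2, the gene of NRF2, stood at 39.99, 43.36 and 37.88 TPM in the DMSO libraries and 42.84, 38.97 and 41.90 TPM in the HFPO-TA libraries. These ranges overlapped, and the log2 fold change was 0.03 (SE 0.08, interval -0.16 to 0.22, adjusted p = 0.928). KEAP1, its inhibitor, stood at 24.96, 21.27 and 25.01 against 24.01, 22.02 and 21.25 TPM, also overlapping (-0.08, interval -0.30 to 0.15, adjusted p = 0.823). BACH1, the repressor of AREs, lay at 14.89, 14.77 and 15.61 TPM with DMSO and at 19.36, 16.45 and 17.12 TPM with HFPO-TA. Its groups did not overlap, yet the log2 fold change of 0.21 did not pass (interval -0.01 to 0.43, adjusted p = 0.445). MAFG, a small MAF partner of NRF2, stood at 14.17, 11.41 and 12.34 against 14.62, 14.46 and 15.04 TPM, again without overlap (0.21, interval -0.04 to 0.45, adjusted p = 0.494). MAFG overlaps SIRT7 on the same strand, which stood at 16.9 and 19.1 TPM.

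AKR1C1 had the largest log2 fold change of the members. It encodes an aldo-keto reductase that reduces steroids and lipid aldehydes, and in human cells it is among the most inducible NRF2 targets. It stood at 51.15, 63.99 and 58.58 TPM in DMSO replicates 1 to 3 and at 92.55, 173.06 and 209.07 TPM in HFPO-TA replicates 1 to 3. The lowest HFPO-TA library lay above the highest DMSO library, but the HFPO-TA libraries differed from each other by more than the distance of replicate 1 to the DMSO group. The log2 fold change was 1.36 (SE 0.30, interval 0.62 to 2.10) and did not pass over all genes (adjusted p = 0.161). Without HFPO-TA replicate 1 it was 1.71 and passed (adjusted p = 0.00259), where 0.600% of genes were called higher, and without HFPO-TA replicate 3 it was 1.12 (adjusted p = 0.33).

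AKR1C1 has close relatives in the same cluster on chromosome 10, where it spans 4963253 to 4983283 on GRCh38 (GENCODE 29). AKR1C2, which inactivates dihydrotestosterone, lies from 4987400 to 5018031 on the opposite strand and AKR1C3, which acts on steroids and prostaglandins, from 5035354 to 5107686. Their coding sequences are each 969 bases without the stop codon. AKR1C1 and AKR1C2 are identical at 98.0% of these bases, AKR1C1 and AKR1C3 at 91.4%. The longest run shared by AKR1C1 and AKR1C2 is 186 bases, and 51.6% of the 50-base words of AKR1C1's coding sequence also occur in that of AKR1C2. Over the whole transcript, 28.3% of AKR1C1's words occur in AKR1C2, and 50.8% of AKR1C2's words occur in AKR1C1. The stretch below covers coding bases 31 to 180 counted from the A of the start codon (GENCODE 29 transcripts). It is shown because reads can be told apart only where the copies differ. Of the stretches of its length compared, it has the most differences between AKR1C1 and AKR1C2, 10, and is not typical. Over all 969 bases, 950 are identical. Capitals mark bases that differ from AKR1C1.
AKR1C1: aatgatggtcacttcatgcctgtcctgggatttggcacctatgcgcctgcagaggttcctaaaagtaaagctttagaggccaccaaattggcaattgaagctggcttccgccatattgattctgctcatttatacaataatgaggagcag
AKR1C2: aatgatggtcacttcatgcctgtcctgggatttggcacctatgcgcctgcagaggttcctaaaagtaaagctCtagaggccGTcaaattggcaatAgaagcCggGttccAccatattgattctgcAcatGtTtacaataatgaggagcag
AKR1C3: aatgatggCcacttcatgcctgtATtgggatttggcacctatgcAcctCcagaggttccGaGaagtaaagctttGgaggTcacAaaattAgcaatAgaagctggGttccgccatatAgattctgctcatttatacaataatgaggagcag

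AKR1C2 stood at 2.47, 2.83 and 2.84 TPM with DMSO and 3.18, 3.43 and 4.05 TPM with HFPO-TA. It was the lowest of the members, and its groups did not overlap (log2 fold change 0.29, interval -0.04 to 0.63, adjusted p = 0.481). AKR1C3 went the other way, from 31.98, 31.50 and 29.04 TPM to 24.22, 26.56 and 28.04 TPM, with all HFPO-TA libraries below all DMSO libraries (-0.22, interval -0.43 to -0.02, adjusted p = 0.363). How the authors' counting divided reads among these copies is not given in the sources used here, so the split between AKR1C1 and AKR1C2 is uncertain. The 3 genes summed to 85.6, 98.3 and 90.5 TPM with DMSO and 120, 203 and 241 TPM with HFPO-TA (log2 fold change 0.98, SE 0.25, adjusted p = 0.206). Since TPM is divided by transcript length, which differs between the copies, this sum also depends on how reads were divided.

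AKR1B10, another aldo-keto reductase of the NRF2 set, stood at 12.46, 8.17 and 6.97 TPM with DMSO and 20.93, 10.64 and 9.17 TPM with HFPO-TA, so replicate 1 was the highest library in both groups and the groups overlapped (0.47, interval -0.29 to 1.23, adjusted p = 0.644). The log2 fold change was 0.13 without HFPO-TA replicate 1 and 0.31 without DMSO replicate 3. Within replicate numbers 1, 2 and 3 the HFPO-TA library was higher by 0.70, 0.34 and 0.35 on the log2 scale. Of its transcript's 50-base words 11.6% occur in AKR1B15, which stood at 6.76 and 9.08 TPM, and its value is uncertain for that reason too.

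**Figure D2:**
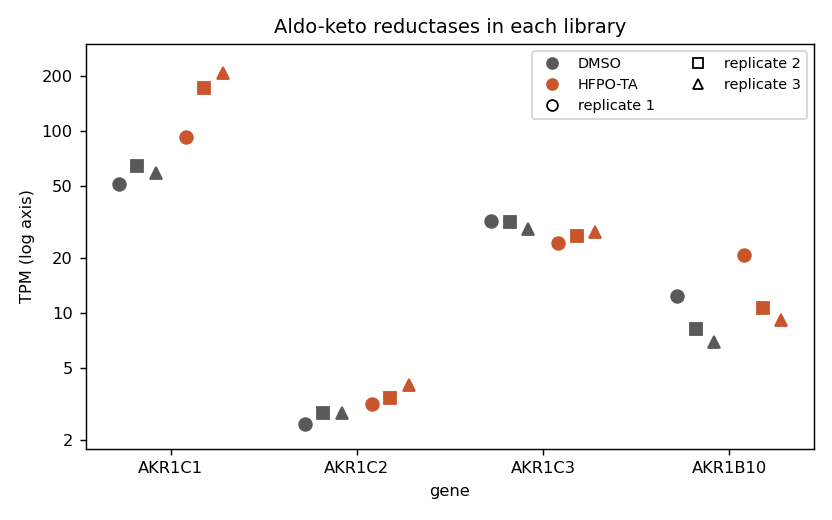
Level in TPM (y axis, log scale) of 4 aldo-keto reductases (x axis) in each of the 6 libraries, coloured by treatment, with the marker shape giving the replicate number. AKR1C1 is higher in all 3 HFPO-TA libraries, at 92.55 to 209.07 TPM against 51.15 to 63.99 TPM, whereas AKR1B10 is highest in replicate 1 of each group.

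SQSTM1 had the smallest p of the members, rank 151 of the 15664 genes. It encodes p62, an autophagy receptor that binds KEAP1 and is also induced by NRF2. It stood at 165.87, 140.91 and 139.54 TPM with DMSO and 193.34, 197.68 and 215.90 TPM with HFPO-TA, without overlap. The log2 fold change was 0.44 (SE 0.08, interval 0.25 to 0.64, adjusted p = 0.0742), and it passed narrowly without DMSO replicate 1 (0.52, adjusted p = 0.0494, with 0.0977% of genes called higher). MGAT4B, which overlaps SQSTM1 on the other strand, had a mean of 105 TPM in both groups. OSGIN1, an oxidative stress-induced growth inhibitor, stood at 51.53, 36.94 and 42.20 against 59.96, 60.95 and 67.40 TPM, also without overlap (0.53, SE 0.12, interval 0.25 to 0.81, adjusted p = 0.12).

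The 2 targets that came next by p were PIR and BLVRB. PIR, the iron-binding protein pirin, stood at 15.71, 17.17 and 16.48 TPM with DMSO and at 19.82, 22.16 and 23.05 TPM with HFPO-TA (0.38, SE 0.09, interval 0.16 to 0.59, adjusted p = 0.157). BLVRB, a flavin and biliverdin reductase, stood at 77.44, 84.78 and 85.39 against 97.12, 102.85 and 101.01 TPM (0.28, SE 0.07, interval 0.13 to 0.43, adjusted p = 0.133). In neither gene did the groups overlap. For BLVRB the spread within each group was smaller than the gap between them. For PIR the HFPO-TA libraries, from 19.82 to 23.05 TPM, spread over more than the gap to the highest DMSO library, at 17.17 TPM. BLVRB is abundant in red cells. The 12 erythroid markers summed to 0.18 to 1.28 TPM per library, and HBA1, HBA2, HBB, HBG1 and KLF1 were listed at 0 in all 6.

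Glutathione synthesis was represented by 5 targets, none of which passed. GCLC, the catalytic subunit of glutamate-cysteine ligase, stood at 19.35, 18.46 and 16.48 TPM with DMSO and 18.34, 22.89 and 26.06 TPM with HFPO-TA, where replicate 1 lay among the DMSO libraries (0.28, interval -0.03 to 0.60). GCLM, the modifier subunit, stood at 5.55, 6.95 and 4.47 against 6.08, 7.33 and 6.39 TPM (0.20, interval -0.17 to 0.58), and its log2 fold change was 0.07 without DMSO replicate 3 and 0.34 without DMSO replicate 2. SLC7A11, the cystine importer that feeds the pathway, stood at 5.74, 6.10 and 6.94 against 6.44, 7.36 and 7.47 TPM (0.16, interval -0.13 to 0.44). All 3 overlapped between the groups. GSS, glutathione synthetase, and GSR, which reduces oxidised glutathione, had log2 fold changes of -0.05 and 0.14.

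The thioredoxin targets gave a like picture. TXN, thioredoxin, stood at 147.77, 158.32 and 151.98 TPM with DMSO and 154.96, 189.77 and 185.60 TPM with HFPO-TA, with replicate 1 of HFPO-TA inside the DMSO range (0.20, interval 0.01 to 0.40, adjusted p = 0.392). TXNRD1, the reductase that recharges thioredoxin, stood at 70.59, 74.87 and 70.68 against 74.18, 82.81 and 84.26 TPM (0.15, interval -0.01 to 0.32, adjusted p = 0.449). SRXN1, sulfiredoxin, which repairs overoxidised peroxiredoxins, stood at 14.14, 15.50 and 14.85 against 17.10, 14.70 and 17.15 TPM (0.13, interval -0.10 to 0.36). In each of these the groups overlapped. SRXN1 shares 84.8% of its 50-base words with the overlapping gene AL121758.1, which is listed at 0 in both groups, so its level rests on how reads were assigned.

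Among quinone, haem and xenobiotic enzymes, NQO1, the quinone reductase often taken as a readout of NRF2, stood at 65.29, 90.17 and 76.88 TPM with DMSO and 76.91, 106.35 and 108.04 TPM with HFPO-TA. HFPO-TA replicate 1 lay level with the middle DMSO library, and the log2 fold change of 0.32 had a wide interval (-0.06 to 0.69, adjusted p = 0.496). HMOX1, haem oxygenase, which is also held down by BACH1, stood at 33.29, 30.11 and 36.99 against 39.72, 29.39 and 28.90 TPM. HFPO-TA replicate 1 was its highest library and HFPO-TA replicates 2 and 3 its lowest, so the groups overlapped (-0.04, interval -0.36 to 0.27, adjusted p = 0.935). HMOX1 is a gene of macrophages as well. Of 12 macrophage markers C1QA, C1QB and VSIG4 were listed at 0 in all libraries, and PTPRC reached at most 0.04 TPM. Others were present in every library, with AIF1 at 4.17 to 8.88, CSF1R at 4.09 to 8.13 and CD163 at 1.04 to 2.15 TPM. The summed level of 57.6 to 73.2 TPM was mostly that of CD68. UGDH, which makes UDP-glucuronic acid, stood at 89.86, 80.93 and 72.49 against 92.94, 96.45 and 103.14 TPM without overlap (0.27, interval 0.06 to 0.47, adjusted p = 0.277). EPHX1, NQO2 and CBR1 had log2 fold changes of 0.15, 0.06 and -0.05.

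The peroxiredoxins, GPX1 and GPX4 had the highest mean TPM of the members with DMSO, whereas GPX2 and both SOD2 rows stood below several direct targets. PRDX1, a peroxiredoxin and the most abundant member, stood at 1069.34, 1126.91 and 1125.00 TPM with DMSO and at 1161.20, 1408.82 and 1451.48 TPM with HFPO-TA. Its groups did not overlap, and HFPO-TA replicate 1 was again the closest to the DMSO libraries (0.27, SE 0.08, interval 0.08 to 0.46, adjusted p = 0.249). Without HFPO-TA replicate 1 it passed (0.37, adjusted p = 0.0177). PRDX2, PRDX3 and PRDX6 likewise lay higher in every HFPO-TA library than in any DMSO library, but by small amounts. PRDX3, the mitochondrial form, stood at 226.48, 235.04 and 227.26 against 239.85, 249.98 and 245.20 TPM (0.09, interval -0.03 to 0.21, adjusted p = 0.536). PRDX2, a cytosolic form that is also abundant in red cells, stood at 297.27, 307.20 and 297.57 against 309.12, 321.08 and 317.06 TPM (0.07, interval -0.04 to 0.18, adjusted p = 0.649). The red cell markers were near 0, as given above. PRDX6, a peroxiredoxin with phospholipase activity, stood at 442.38, 421.39 and 438.94 against 468.73, 456.55 and 461.27 TPM (0.09, interval -0.02 to 0.20, adjusted p = 0.516).

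The glutathione peroxidases parted. GPX1, the cytosolic form, stood at 328.38, 334.71 and 319.80 TPM with DMSO and 353.73, 343.55 and 336.94 TPM with HFPO-TA, a narrow gap without overlap (0.07, interval -0.04 to 0.19, adjusted p = 0.64). Of its 50-base words 20.3% occur in the pseudogene GPX1P1, so its value is uncertain. GPX4, which reduces lipid peroxides in membranes, stood at 588.32, 575.71 and 610.17 against 574.94, 615.80 and 637.41 TPM with overlap (0.04, interval -0.09 to 0.17, adjusted p = 0.833). GPX2, an epithelial form best known from gut, stood at 8.71, 5.95 and 7.39 TPM with DMSO and 5.43, 4.05 and 5.08 TPM with HFPO-TA. It was lower in all HFPO-TA libraries (-0.51, SE 0.17, interval -0.89 to -0.13) and did not pass (adjusted p = 0.266). CHURC1, which spans GPX2 on the other strand, had means of 20.7 and 24.9 TPM, and the value of GPX2 is uncertain because the strand setting is not known.

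The superoxide dismutases overlapped between groups. SOD1, the copper-zinc enzyme of the cytosol, stood at 182.48, 197.85 and 190.63 TPM with DMSO and 196.73, 211.54 and 211.21 TPM with HFPO-TA (0.12, interval -0.02 to 0.26, adjusted p = 0.498). SOD2, the manganese enzyme of mitochondria, stood at 56.73, 57.81 and 56.47 against 53.45, 69.74 and 65.04 TPM in its higher row (0.13, interval -0.10 to 0.36, adjusted p = 0.69), where HFPO-TA replicate 1 was the lowest library. The lower row stood at 24.44, 22.56 and 20.94 against 23.15, 26.73 and 25.33 TPM (0.14, interval -0.08 to 0.36, adjusted p = 0.635). The rows overlap on chromosome 6 on the same strand, and the split between them is uncertain.

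**Figure D3:**
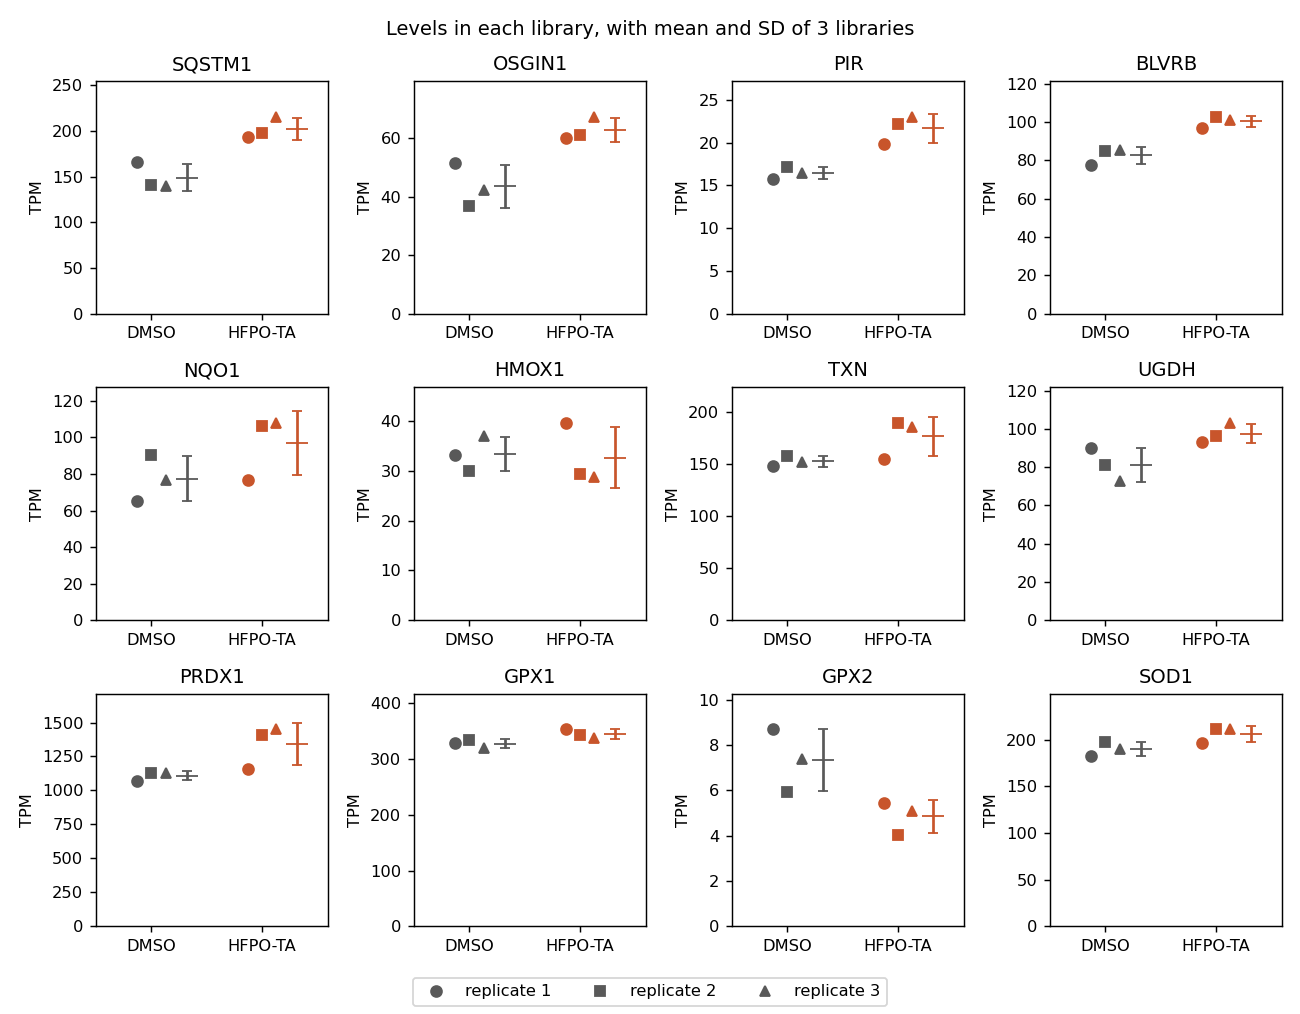
Level in TPM (y axis, from 0) of 12 members with DMSO and HFPO-TA (x axis), 1 marker per library with its shape giving the replicate number, and the mean with SD of 3 libraries beside them. SQSTM1, OSGIN1, PIR, BLVRB, UGDH, PRDX1 and GPX1 lie higher in all HFPO-TA libraries, GPX2 lies lower, and NQO1, HMOX1, TXN and SOD1 overlap.

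Set against each other, direct targets had a median log2 fold change of 0.205 over 22 genes and the antioxidant families 0.092 over 10 rows. Above 0 were 18 of 22 and 9 of 10, against 48.3% of all tested genes. At an unadjusted p under 0.05, 7 direct targets were higher and 1 lower, and 1 row of the families was higher and 1 lower. Of all tested genes 5.45% were higher and 6.56% lower at that limit. Without AKR1C1, AKR1C2 and AKR1C3 the median of the direct targets was still 0.205. The direct targets summed to 1222, 1192 and 1162 TPM in the DMSO libraries and 1359, 1507 and 1594 TPM in the HFPO-TA libraries. The families summed to 3225, 3285 and 3294 against 3386, 3708 and 3756 TPM. In both sums HFPO-TA replicate 1 was the closest to the DMSO group. No p is given for these summaries because the members were chosen with results of these data known.

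The difference was not even over replicates. Relative to the DMSO mean, the median direct target lay at 0.139, 0.240 and 0.252 on the log2 scale in HFPO-TA replicates 1, 2 and 3, and between -0.018 and 0.031 in the DMSO libraries. For the antioxidant families the values were 0.044, 0.108 and 0.102, and -0.007 to 0.023 with DMSO. The names of the deposited files carry a letter that sets replicate 1 of each group apart, and no label says what it stands for. With a single library per group, replicate 1 allows no test. There AKR1C1 differed by 0.84 and SQSTM1 by 0.22 on the log2 scale, against 1.62 and 0.56 in replicates 2 and 3. With sign kept, the HFPO-TA minus DMSO difference was higher in replicates 2 and 3 for 16 of 22 direct targets. That count includes AKR1C3, at -0.39 in replicate 1 and -0.14 in replicates 2 and 3. The share over all tested genes was not counted. Fitted alone, replicates 2 and 3 called 4 members, AKR1C1 (adjusted p = 0.00537), SQSTM1 (0.0227), PRDX1 (0.0227) and OSGIN1 (0.0371), all higher, where 0.610% of the genes tested in that fit were called higher. With a term for the letter and all libraries, AKR1C1 alone was called (adjusted p = 0.0391), where 0.460% of genes were called higher.

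**Figure D4:**
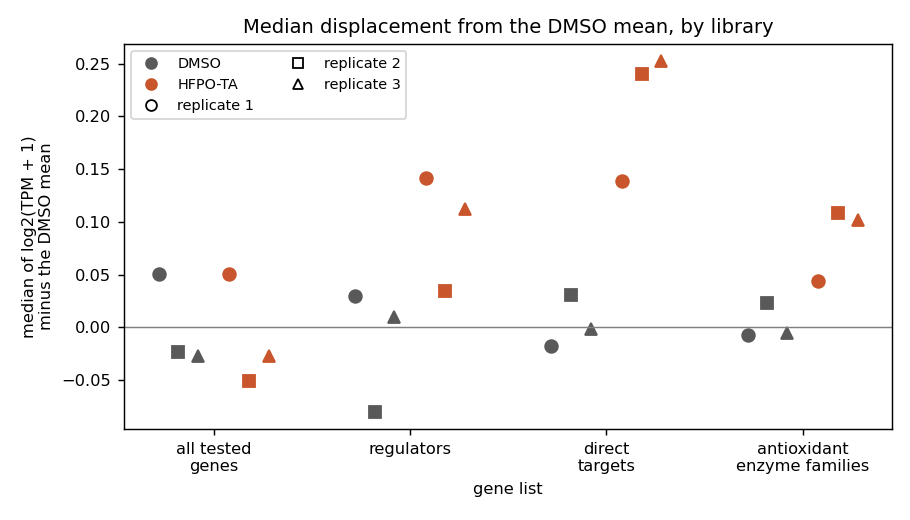
Median over the genes of each list (x axis) of log2(TPM + 1) minus the gene's DMSO mean (y axis), 1 marker per library, coloured by treatment and shaped by replicate number. The 3 HFPO-TA libraries lie at 0.139 to 0.252 for direct targets and at 0.044 to 0.108 for antioxidant families, while both replicate 1 libraries lie at 0.051 for all tested genes.

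Markers of other cells also parted the replicates. The 12 stromal markers summed to 2249, 1563 and 1771 TPM in the DMSO libraries and 2528, 1326 and 1318 TPM in the HFPO-TA libraries. The sum was highest in replicate 1 of each group, and no stromal marker was listed at 0 in every library. It was mostly that of collagens, with COL3A1 at 1060.9 TPM in DMSO replicate 1. Not every marker followed the sum, as COL6A3 stood at 12.42, 13.74 and 14.05 TPM with DMSO. The part of stromal cells in the values of AKR1C1, AKR1B10 or PRDX1 was not tested. The 12 hepatocyte and hepatoblast markers summed to 113886 ± 6439 TPM with DMSO and 100642 ± 4166 TPM with HFPO-TA (SD, n = 3 each), mostly AFP, the fetal liver protein. Of the 12, 5 lay lower in all HFPO-TA libraries without overlap (AFP, ALB, APOB, HNF4A and TTR) and 0 lay higher. Over all tested genes 9.40% lay lower and 8.55% higher without overlap. None of the 12 passed the test. ALB, albumin of mature hepatocytes, stood at 100.92, 128.68 and 108.63 TPM with DMSO and 54.07, 66.39 and 73.51 TPM with HFPO-TA (-0.80, adjusted p = 0.0522). Endothelial markers summed to 44.5 to 62.5 TPM and pluripotency markers to 60.1 to 65.0 TPM, with NANOG at most 0.14 TPM. Log2 fold changes lay below 0 for 9 of 12 hepatocyte markers tested, 11 of 11 stromal and 5 of 6 endothelial ones. For pluripotency and macrophage markers it was 3 of 5 and 2 of 5. The medians of the hepatocyte, stromal and endothelial markers were -0.179, -0.171 and -0.172, beside -0.008 over all tested genes. In bulk RNA, fewer cells of a type and less RNA per cell cannot be told apart.

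Other genes of the pathway, listed by role, gave 1 called gene. Of 14 further regulators 12 were tested, and limma called 0. At an unadjusted p below 0.05, 1 of the 12 lay lower, against 6.56% of all tested genes. The smallest p was that of DPP3, a KEAP1 binder, at 32.11, 34.07 and 31.29 against 24.12, 29.32 and 28.42 TPM (-0.25, interval -0.47 to -0.03, adjusted p = 0.355). NFE2L1, a relative of NRF2 that governs proteasome genes, was the most abundant at 115.33, 91.19 and 113.33 against 120.01, 103.29 and 109.76 TPM. Its groups overlapped, those of DPP3 did not. CUL3, the ligase scaffold that works with KEAP1, stood at 34.2 ± 3.08 and 38.4 ± 0.78 TPM (adjusted p = 0.493).

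Of 27 rows of further NRF2-linked targets 24 were tested and 0 were called by limma, with a median log2 fold change of 0.036. At an unadjusted p below 0.05, 1 of the 24 lay higher, against 5.45% of all tested genes. The 1 was ABCC3, an exporter of glucuronides in the sinusoidal membrane, which stood at 4.42, 7.41 and 7.37 TPM with DMSO and 10.61, 9.20 and 11.58 TPM with HFPO-TA (0.66, SE 0.19, interval 0.22 to 1.09, adjusted p = 0.222). The most abundant was FTL, the light chain of ferritin, at 9338.90, 10376.77 and 9733.67 against 9488.42, 11693.46 and 12015.44 TPM (0.17, adjusted p = 0.536), with HFPO-TA replicate 1 inside the DMSO range. Among enzymes of the pentose phosphate pathway, PGD, TKT and TALDO1 had log2 fold changes of -0.12, 0.20 and 0.11.

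Of 23 further antioxidant enzymes and selenium-pathway genes 21 were tested, 0 were called higher and 1 lower, where 0.185% and 0.306% of all tested genes were. At an unadjusted p under 0.05, 2 lay higher (GPX3 and GLRX3) and 4 lower (SELENOP, CCS, GPX7 and SEPHS2), against 5.45% and 6.56% of all tested genes. The called gene was SELENOP, a selenium transport protein that hepatocytes secrete. It fell from 2874.31, 3060.50 and 2961.64 TPM to 2269.33, 2078.62 and 2059.44 TPM, without overlap (-0.47, SE 0.05, interval -0.60 to -0.35, adjusted p = 0.0171). The call was lost without DMSO replicate 2 or 3 or HFPO-TA replicate 2 or 3 (adjusted p from 0.0737 to 0.153) and with the replicate number as a block (adjusted p = 0.0535), without a filter on low values (0.0651) or without a variance trend (0.132). SELENOP overlaps CCDC152 on the other strand. Most hepatocyte markers given above also lay lower with HFPO-TA, as did most tested stromal and endothelial markers. The part of any of these in the fall of SELENOP was not tested. GPX3, the secreted glutathione peroxidase, stood at 131.01, 126.55 and 122.28 against 145.82, 172.05 and 178.15 TPM (0.38, SE 0.08, adjusted p = 0.116). CCS, the copper chaperone of SOD1, stood at 115.19, 123.80 and 123.26 against 93.84, 100.73 and 99.74 TPM (-0.30, SE 0.06, adjusted p = 0.103). GPX7, a peroxidase of the endoplasmic reticulum, stood at 41.72, 45.55 and 47.60 against 35.83, 38.58 and 34.31 TPM (-0.30, adjusted p = 0.197). SEPHS2, which makes the selenium donor for selenoproteins, and GLRX3, a glutaredoxin, had log2 fold changes of -0.22 and 0.19 (adjusted p = 0.34 and 0.348). In none of these 5, chosen after their values were seen, did the groups overlap. Of the 21 tested, 3 lay higher and 5 lower without overlap, against 8.55% and 9.40% of all tested genes.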

How the data were processed

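Per the file headers each library has 1 value per gene, called FPKM, but the 6 deposited columns sum to 995690 to 996186, so the values were read as TPM. Per the submitters' processing notes, the genome build was GRCh38.p13, and RSEM, HISAT and Bowtie2 were used in roles and versions not given. For annotation and strand setting, the sources used here give nothing. Because TPM does not retain sequencing depth, that depth is unknown and counting error cannot be bounded; 15383 to 15905 genes stood at 1 TPM or more per library.

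The 15664 genes that reached 1 TPM in 3 libraries were fitted as log2(TPM + 1) with limma 3.58.1 in R 4.3.3, treatment as the only term, with trended and robust variance, 2-sided, with Benjamini-Hochberg adjustment over all of them. The fit was checked on simulated data, where it recovered 59.8%, 93.4% and 99.4% of changes of 0.5, 1 and 2 on the log2 scale. Of the genes called there, 5.5% were false. The simulated noise was independent between libraries and followed a smoothed trend, with nothing that set replicate 1 apart. Changes were placed only in genes above a set level. These shares therefore need not hold for the real libraries. Changes below 0.5, where most members lay, were not simulated. Genes given with each library were the regulators, members without overlap or with an unadjusted p under 0.05, and 17 listed by name; of the other lists, called genes, the smallest p and the highest level. Members left to means or fold changes are summarised. GPX3, CCS, GPX7, SEPHS2, GLRX3, CUL3, PGD, TKT, TALDO1, CAT, TXNRD2 and CBR3 were chosen after their values were seen. Members and lists were chosen with earlier results of these data known. Positions and 50-base words come from GENCODE 29, start-site windows from RefSeq (GRCh38.p14), alignments from Biopython 1.88, and figures from matplotlib 3.10.9. Of the 36 rows 15 shared no 50-base word with another gene and 8 shared over 10%. Alternatives covered the pseudocount, filter, variance estimate, scaling, replicate terms and each library left out; restricting to protein-coding genes, summing AKR1C genes and leaving them out were chosen after seeing the data.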

Additional observations from a re-analysis of the deposited data

How the results depend on the processing

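Of 17 refits, 13 called 0 members, as did the analysis reported. A term for the file-name letter gave 1, replicates 2 and 3 alone gave 4, and leaving out 1 library gave from 0 to 2. The call of SELENOP was the 1 among the other pathway genes. That number was 0 without a filter, 0 with the replicate block and 0 without variance trend, 2 with the term parting replicate 1, 2 in replicates 2 and 3 alone, and from 0 to 4 with 1 library left out, the 4 (FTH1, FTL, GPX3 and SELENOP) without HFPO-TA replicate 1. In that last fit 0.600% of all genes were called higher, against 0.185% with all libraries. The share was 0.610% in replicates 2 and 3 alone and 0.460% with the term parting replicate 1. Shares called lower in the refits are not given here. The median of direct targets was 0.266 in replicates 2 and 3 alone and its distance to the antioxidant families 0.169 there, against 0.113 with all libraries and from 0.078 to 0.15 with 1 library left out. Signs turned only for members near 0: HMOX1 ran from -0.188 to 0.034, NFE2L2 from -0.015 to 0.080 and NQO2 from -0.002 to 0.110 with 1 library left out, and NFE2L2 was at -0.004 in replicates 2 and 3 alone. The other 33 rows of members kept their sign in every refit. Size moved by over 1.5 times with 1 library left out also for AKR1B10 and GCLM (values in the text), NQO1 (0.20 without DMSO replicate 1), GCLC (0.17 without HFPO-TA replicate 3), SRXN1 (0.20 without HFPO-TA replicate 2), both SOD2 rows, and KEAP1, CBR1, GSS, GSR and GPX4. Median-of-ratios and upper-quartile scaling called 0 members. Fewer libraries were fitted in the left-out settings, and no other cause was tested.

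Same replicate numbers correlated at 0.184, 0.123 and 0.028 in their deviations from group means, and different numbers at -0.158 to 0.068. The numbers were not taken as pairs because no label states a pairing. With the replicate block 0 members were called, and AKR1C1 had an adjusted p of 0.108 and SQSTM1 of 0.122. TPM gives no depth, so what counting error adds to low members such as AKR1C2 is unknown.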

Other observations

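CAT, catalase of peroxisomes, was listed at 0.07, 0.04 and 0.26 TPM with DMSO and 0.04, 0.08 and 0.26 TPM with HFPO-TA, and TXNRD2, the mitochondrial thioredoxin reductase, at 0.26 to 0.87 and 0 to 0.61 TPM. Both lay below the filter whereas SOD1 stood at 182.48 TPM or more in every library.

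CBR3, a carbonyl reductase beside CBR1 on chromosome 21, lay below the filter at 0.42, 0.20 and 0.22 TPM with DMSO and 1.72, 0.50 and 0.51 TPM with HFPO-TA, and was not tested.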
